A study of Rattus norvegicus with 22 samples.

Results

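The circadian clock of the liver was followed through 10 genes: Arntl, Clock and Npas2 of the positive arm, and Per1, Per2, Per3, Nr1d1, Nr1d2, Dbp and Tef, which here form the negative and output arm. Members were taken by name: every probe that was not a control and whose gene name on the array, ignoring case, was one of these 10. This gave 17 probes for 10 genes among 26276 gene names and 30367 probes, and 16 of the 17 passed the detection filter. Where a gene had several probes, the brightest one in the rat channel stood for it.

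The clock is a loop of transcription factors that runs in nearly every cell. ARNTL (BMAL1) pairs with CLOCK or NPAS2 and switches on genes through E-boxes, among them the Per genes, the Nr1d genes, Dbp and Tef. PER proteins return to block that pair, NR1D1 and NR1D2 (REV-ERB alpha and beta) repress Arntl and Npas2 through RORE elements, and DBP and TEF act on D-boxes of output genes. In rodent liver Arntl and Dbp transcripts therefore peak at nearly opposite times of the day, and feeding time sets the liver's phase.

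Liver RNA came from male Sprague-Dawley rats that were 8 weeks old at the start, were caged singly with free access to food and water and lived under 12 h of light and 12 h of dark. CD 3 and BD 3 (5 rats each) were fed with the control diet or the BASE-diet for 3 months, and CD 14 and BD 14 (6 rats each) for 14 months. In the BASE-diet 6% salmon fat took the place of lard, and 8% linden extract, 8% pumpkin puree and 1% probiotic bacteria were added. Each rat was hybridised, labelled with Cy5, on an array of its own against a common reference labelled with Cy3, which was RNA of healthy 10-week-old rats outside the experiment. These dyes are those of the array labels. The study's methods also name a common reference, but 1 sentence there puts control rats in Cy3 and BASE-diet rats in Cy5 on each array. The labels were followed, which give every rat of either diet in Cy5, and if that sentence held instead, the ratios and the Cy3 values below would not refer to a common reference. The time of day at which rats were killed is not given in the sources used here. Of 24 arrays made, the authors rejected 1 of CD 3 and 1 of BD 3, which were not analysed here.

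Values are log2 ratios of Cy5 to Cy3, so that 0 stands for the level of the reference and 1 for a doubling. The log2 signals of each channel alone, after quantile normalization, are given where they bear on a result. Between 52.4% and 93.6% of spots were well above background in Cy5. The arrays lay on 5 slides, scanned separately, lettered A to E here. Slide C held all 6 BD 14 and 2 CD 14 arrays, slide A held 3 BD 3 and 3 CD 14, slide B held 2 BD 3 and 1 CD 3, slide D held 3 CD 3, and slide E held 1 CD 3 and 1 CD 14. All 6 hepatocyte markers were well above background on all 22 arrays. Each array stands for 1 rat, and in whole liver fewer cells of a type and less RNA per cell cannot be told apart.

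Several probes carry the results below, and those in coding sequence are printed here because agreement between probes of Dbp and the identity of the Nr1d probes matter for reading them. The sequences are those of the array files, 5′ to 3′, with the rn4 position the files give, and no part of them is marked.
Dbp A_64_P049828, chr1:96178064-96178123, plus strand: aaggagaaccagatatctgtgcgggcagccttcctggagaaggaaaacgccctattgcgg
Dbp A_64_P049827, chr1:96178148-96178207, plus strand: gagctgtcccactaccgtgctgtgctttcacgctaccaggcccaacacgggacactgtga
Arntl A_64_P117345, chr1:171154767-171154826, plus strand: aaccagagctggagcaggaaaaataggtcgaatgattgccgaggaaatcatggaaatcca
Nr1d1 A_44_P175041, chr10:87543165-87543519, minus strand: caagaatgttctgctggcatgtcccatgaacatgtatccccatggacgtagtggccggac
Nr1d2 A_44_P395572, with no position in the files: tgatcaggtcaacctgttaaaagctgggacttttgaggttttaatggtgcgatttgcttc

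The Nr1d1 probe is 60 bases long while the position given spans 355 bases, which is wider than the probe. The main probes of Dbp (A_64_P017188) and Arntl (A_44_P214873) lie further 3′ in the same transcripts.

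The loop acts through short DNA elements, which were looked for in the promoters of the members. In RefSeq promoters of build GRCr8, the 250 bases before the start were searched on both strands for the E-box CACGTG, the E′-box CACGTT, the D-boxes TTATGTAA and TTACGTAA, and the RORE cores TAGGTCA and TGGGTCA. All 10 members had an entry (Arntl as Bmal1), with 12 starts, and 4 members held at least 1 element, while 6 (Clock, Npas2, Per1, Per3, Nr1d2 and Dbp) held none in this window. Over all 33469 promoters, 5.59% held the E-box, 4.07% the E′-box, 0.93% a D-box and 5.62% a RORE core. The windows of 60 bases below show the element in capitals.
Arntl, RORE 16 bases before the start, chr1:176766268-176766327, plus strand: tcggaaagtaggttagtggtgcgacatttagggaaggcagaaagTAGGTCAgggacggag
Per2, D-box 192 bases before the start, chr9:99497152-99497211, minus strand: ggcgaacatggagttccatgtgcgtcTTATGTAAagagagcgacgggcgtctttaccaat
Per2, E′-box 62 bases before the start, chr9:99497022-99497081, minus strand: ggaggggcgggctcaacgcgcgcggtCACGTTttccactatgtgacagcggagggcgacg
Nr1d1, E-box 191 bases before one start, chr10:84229612-84229671, minus strand: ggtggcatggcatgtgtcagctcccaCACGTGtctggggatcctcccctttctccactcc
Nr1d1, E′-box 174 bases before the other start, chr10:84231953-84232012, minus strand: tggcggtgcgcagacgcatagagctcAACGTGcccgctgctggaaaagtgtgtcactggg
Tef, E-box 198 bases before the start, chr7:115206603-115206662, plus strand: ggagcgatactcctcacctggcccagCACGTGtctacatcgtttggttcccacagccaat

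The RORE of Arntl lies close to its start, and the E-boxes of Nr1d1 and Tef lie near the far edge of the window. A match of letters is a description of the sequence, and none of these elements was assayed here.

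No member differed between diets or between times after adjustment over all 19434 probes tested (limma, Benjamini-Hochberg). The background was the same, since 0% of probes passed in any of the 4 pairwise comparisons or in the interaction of diet and time. At an unadjusted p under 0.05, 0 of 10 members passed for BD 3 minus CD 3, against 7.1% of all probes (4.99% higher in BD 3). For BD 14 minus CD 14 it was 0 of 10, against 4.61% (3.8% higher in BD 14). For CD 14 minus CD 3 it was 1 of 10, Nr1d1, which was higher in CD 14, against 10.1% of probes (6.86% higher in CD 14). For BD 14 minus BD 3 it was 2 of 10, Nr1d1 and Nr1d2, both higher in BD 14, against 7.43% (4.75% higher in BD 14), and for the interaction 0 of 10, against 4.8% (2.48% positive). These shares lie near or below the background except for BD 14 minus BD 3. The groups did not overlap for 0 of 10 members in the first 3 comparisons, where 0.762%, 0.767% and 0.509% of probes did not overlap, and for 1 of 10, Nr1d2, in BD 14 minus BD 3. The median difference of the 10 members was 0.27 for BD 3 minus CD 3, 0.03 for BD 14 minus CD 14, 0.37 for CD 14 minus CD 3 and -0.13 for BD 14 minus BD 3, beside 0.03, 0.05, 0.03 and 0.07 over all probes.

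**Figure D1:**
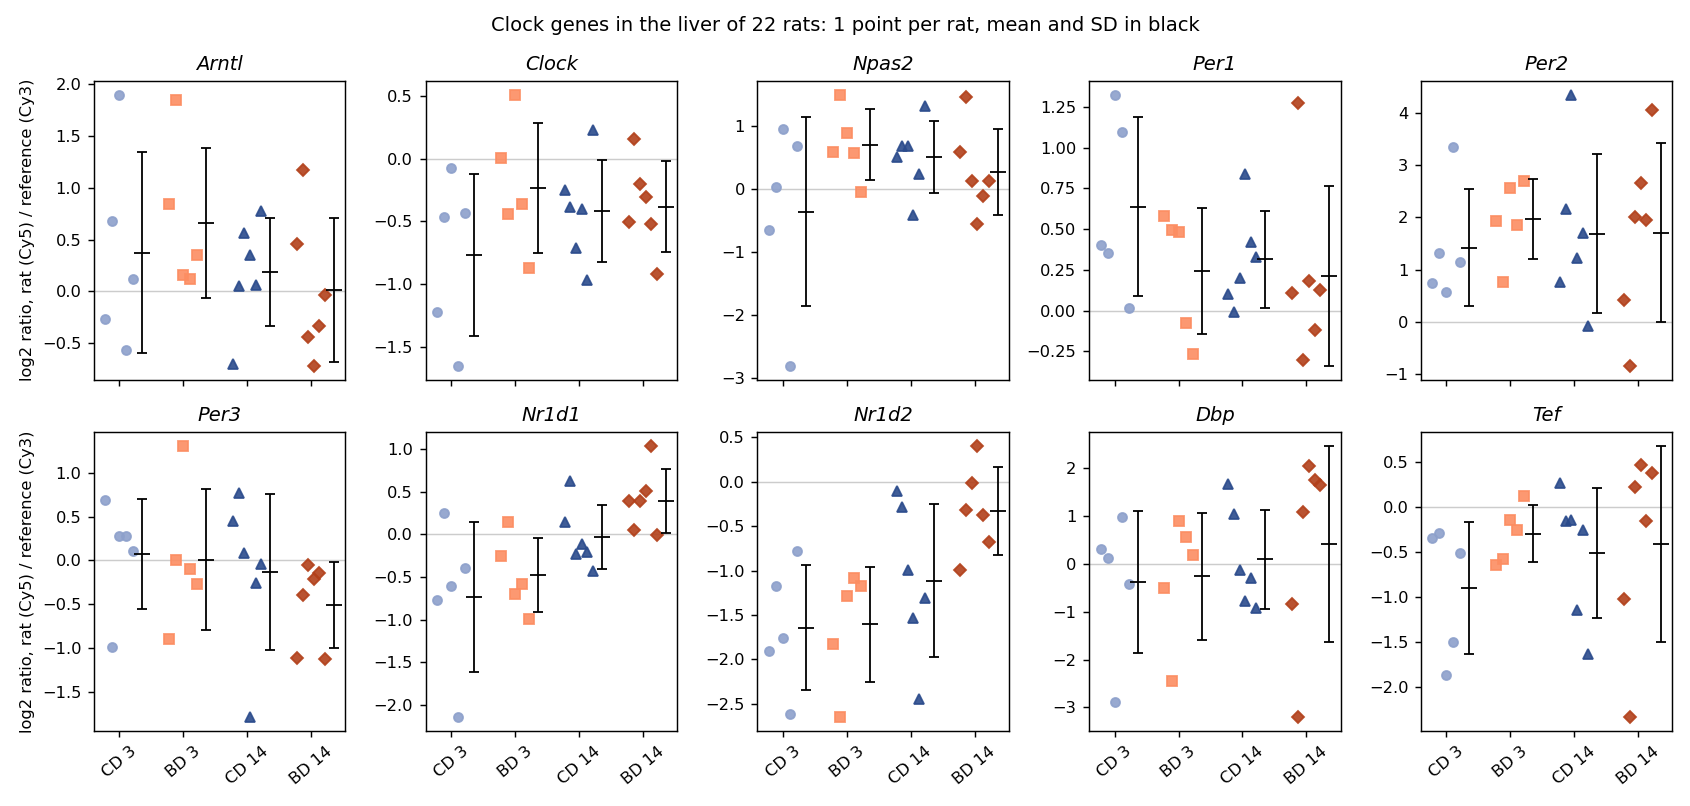
Log2 ratio of rat (Cy5) to reference (Cy3) of each clock gene (y axis, its own scale in each panel) by group (x axis), 1 point per rat, with the mean and SD in black. Groups overlap in nearly every panel, Nr1d1 and Nr1d2 are highest in BD 14, and 1 rat each of CD 3, BD 3 and BD 14 is far below the others in Dbp.

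Nr1d2, the gene of REV-ERB beta, showed the widest separation by time under the BASE-diet. In CD 3 its log2 ratios were -1.91, -1.18, -1.76, -2.61 and -0.78, and in BD 3 -1.83, -2.65, -1.29, -1.08 and -1.18. In CD 14 they ran from -2.44 through a median of -1.15 to -0.11, and in BD 14 from -1.0 through -0.35 to 0.41. Every BD 14 rat was above every BD 3 rat, whereas BD 14 and CD 14 overlapped. BD 14 and BD 3 did not overlap, in either direction, for 2.26% of all probes. BD 14 exceeded BD 3 by 1.28 (SE 0.40, 95% interval 0.45 to 2.11, unadjusted p = 0.0042, adjusted p = 0.41 by limma). Under the control diet CD 14 exceeded CD 3 by 0.53 (interval -0.30 to 1.36, unadjusted p = 0.20 by limma), less than for Npas2 (0.86) and Nr1d1 (0.70). With slide as a fixed block this control-diet difference of Nr1d2 was -0.090. BD 14 exceeded CD 14 by 0.78 (SE 0.38, interval -0.01 to 1.57, adjusted p = 0.95). The probe was dim, with the rat channel well above background on 19 of 22 arrays and a median Cy5 signal of 26.6 processed signal units. With another background correction (normexp and loess), BD 14 exceeded BD 3 by 0.49 (unadjusted p = 0.0011, adjusted p = 0.38 by limma) and CD 14 by 0.17. On slide C, which holds both 14-month groups, BD 14 (6 arrays) exceeded CD 14 (2 arrays) by 1.66. With slide as a fixed block, the difference was 1.66 (unadjusted p = 0.00073, adjusted p = 0.21), and that of BD 14 and BD 3 was 2.24 (adjusted p = 0.69). No slide held both BD 14 and BD 3 arrays, so no value within a slide could be had for this comparison.

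Nr1d1, the gene of REV-ERB alpha, had the same order of group means. Its log2 ratios were -0.77, 0.25, -0.61, -2.14 and -0.40 in CD 3 and -0.26, 0.14, -0.70, -0.58 and -0.99 in BD 3. CD 14 ran from -0.43 through -0.16 to 0.63, and BD 14 from -0.01 through 0.39 to 1.04. BD 14 was the only group with a mean above the reference, at 0.39 ± 0.38 (SD, n = 6), and it overlapped with each other group. The difference of BD 14 and BD 3 was 0.87 (SE 0.32, interval 0.21 to 1.53, unadjusted p = 0.012, adjusted p = 0.51 by limma). That of CD 14 and CD 3 was 0.70 (SE 0.32, interval 0.04 to 1.36, adjusted p = 0.47 by limma). It was 0.35 without CD 3 replicate 4, and on slide E the 1 CD 14 array was 0.03 below the 1 CD 3 array. With slide as a fixed block these differences were 1.23 for BD 14 minus BD 3 and 0.78 for CD 14 minus CD 3 (unadjusted p = 0.065 and 0.19, adjusted p = 0.99 and 0.85 by limma). That of the diets at 14 months was 0.43 (interval -0.20 to 1.06). In the rat channel alone Nr1d1 differed by 0.55 between BD 14 and BD 3 (unadjusted p = 0.30), where Nr1d2 differed by 1.25 (unadjusted p = 0.013, adjusted p = 0.28 by limma), and Nr1d2 in BD 14 exceeded CD 14 by 1.07 (adjusted p = 0.85 by limma).

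Markers of other liver cells were averaged in each rat, and the groups overlapped. The mean log2 ratio of 5 Kupffer cell markers ran from -2.27 to -0.43 over BD 3 rats and from -1.88 to -0.17 over BD 14 rats, with medians of -1.05 and -0.71, and 3 of the 5 were well above background on all arrays. Under the control diet its median was -1.74 in CD 3 and -0.76 in CD 14. For 3 endothelial markers the medians were -1.22 in CD 3 and -0.20 in CD 14, and -0.62 in BD 3 and -0.22 in BD 14. From BD 3 to BD 14 the median of 3 red blood cell markers went from -1.61 to -0.74 and that of 4 lymphocyte markers from -0.28 to 0.24. For 5 stellate cell and fibroblast markers the medians were -1.15 in CD 3 and -1.10 in CD 14, and -0.91 in BD 3 and -1.09 in BD 14. No test of time was run on these lists. Their part in the Nr1d values was not tested.

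Per1, Per2 and Per3 encode the repressors of the loop. Per2 had a wide spread of ratios. CD 3 rats ran from 0.57 to 3.34, BD 3 rats from 0.77 to 2.70, CD 14 rats from -0.07 to 4.35 and BD 14 rats from -0.84 to 4.04, so all groups overlapped. The mean of Per2 in BD 14 minus that in CD 14 was 0.02 (interval -1.50 to 1.53), so this design could not exclude a difference of over 1 on the log2 scale in either direction. Its reference signal was well above background on only 17 of 22 arrays. Per3 had its lowest mean in BD 14, at -0.51 ± 0.49, against -0.13 ± 0.89 for CD 14, 0.07 ± 0.63 for CD 3 and 0.01 ± 0.81 for BD 3. The direction turned within slide C, where BD 14 was 0.52 above CD 14, and with slide as a fixed block, which gave 0.52 for that difference and 0.78 for BD 14 minus BD 3. In the rat channel alone Per3 in BD 14 was 0.83 below CD 14 (unadjusted p = 0.013, adjusted p = 0.83 by limma), and a second Per3 probe, A_64_P119405, was lower there too, with mean log2 Cy5 of 4.81 in BD 14 and 5.72 in CD 14. In the ratio the second probe was 0.74 higher in BD 14 than in CD 14 (unadjusted p = 0.086), where its mean log2 Cy3 was 3.96 in BD 14 and 5.40 in CD 14, and that reference signal was well above background on 11 of 22 arrays. The probes of Per3 thus differed in sign in the ratio and not in Cy5, and over 21 arrays they correlated at -0.34 in the ratio and 0.48 in Cy5. Per1 ran from -0.30 to 1.33 over all rats, and its reference signal was well above background on 9 arrays.

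In the positive arm, Arntl had means of 0.66 ± 0.72 for BD 3 and 0.37 ± 0.97 for CD 3 (SD, n = 5 each), and of 0.19 ± 0.52 for CD 14 and 0.02 ± 0.69 for BD 14 (SD, n = 6 each). The difference of diets was 0.29 at 3 months (interval -0.62 to 1.20) and -0.17 at 14 months (interval -1.0 to 0.66). Clock, the main partner of ARNTL, had means between -0.77 in CD 3 and -0.23 in BD 3. Npas2, which can replace Clock, was higher in BD 3 than in CD 3 by 1.06 (SE 0.53, interval -0.04 to 2.16, unadjusted p = 0.059, adjusted p = 0.73 by limma), and by 0.44 without CD 3 replicate 4. Its CD 3 values were -0.66, 0.03, 0.95, -2.81 and 0.69, and its BD 3 values 0.58, 1.5, 0.90, 0.56 and -0.05. The groups overlapped, and CD 3 replicate 4 was the lowest of all 22 rats in Npas2, Clock and Nr1d1. Its array also had the lowest share of spots well above background (52.4%) and the lowest median Cy5 signal (44.2 processed signal units) of the 22, and their part in these values was not tested. On slide B, 2 BD 3 arrays exceeded the 1 CD 3 array by 1.70 in Npas2. The second Npas2 probe varied little (SD 0.33 over 22 arrays) and correlated with the main one at only 0.32.

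**Figure D2:**
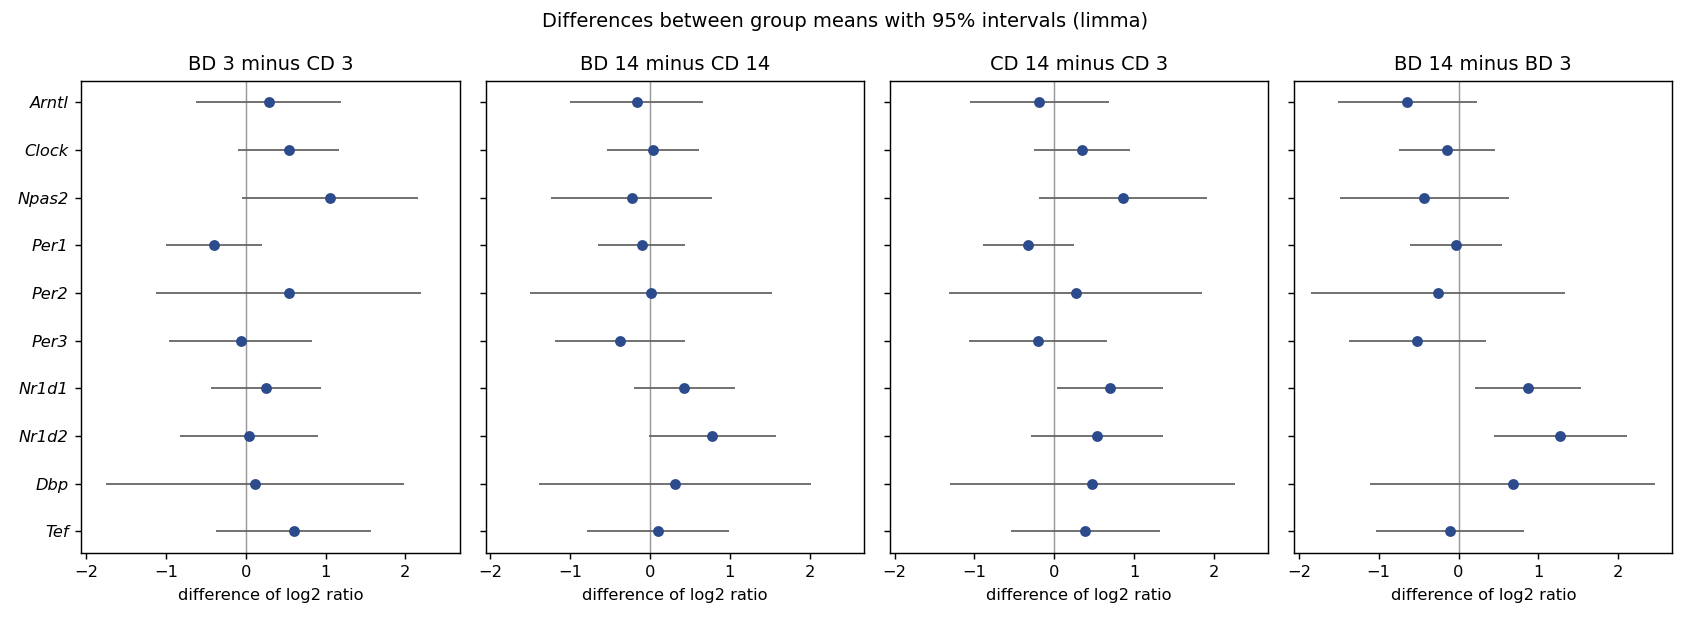
Difference of the group means of log2 ratio (x axis) for each clock gene (y axis) in the 4 pairwise comparisons, with 95% intervals from limma. All intervals but those of Nr1d1 in both comparisons of time and of Nr1d2 in BD 14 minus BD 3 include 0.

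Dbp, the D-box activator and one of the most strongly cycling transcripts of liver, had the widest spread of the members in the ratio, though not in the rat channel alone, where those of Per2, Nr1d2 and Nr1d1 were wider. Its log2 ratios were 0.31, 0.14, -2.88, 0.98 and -0.41 in CD 3 and -0.51, -2.44, 0.90, 0.57 and 0.18 in BD 3. CD 14 ran from -0.92 through -0.21 to 1.68 and BD 14 from -3.21 through 1.36 to 2.06. Its SD over all 22 arrays was 1.46, larger than that of 99.4% of the 13860 probes well above background on every array, whose median SD was 0.46. On 3 arrays, CD 3 replicate 3, BD 3 replicate 2 and BD 14 replicate 2, the ratio was below -2, and the other 19 arrays were at -0.92 or above. The same arrays were the lowest with both other Dbp probes printed above, whose ratios correlated with the main probe at 0.96 each. Tef, which binds the same D-boxes, had its lowest ratios on BD 14 replicate 2 (-2.33), CD 3 replicate 3 (-1.87) and CD 14 replicate 6 (-1.63). Dbp was at -0.92 on the last of these. On BD 3 replicate 2, 1 of the 3 arrays low in Dbp, Tef was no lower than -0.64, the lowest value of BD 3.

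The groups overlapped in Dbp and Tef. The mean of Dbp in BD 3 was 0.11 above CD 3 (interval -1.75 to 1.98) and that in BD 14 was 0.32 above CD 14 (interval -1.39 to 2.02). For Tef these differences were 0.60 (interval -0.37 to 1.57) and 0.10 (interval -0.78 to 0.99). At 3 months the direction turned with slide as a fixed block, to -1.44 for Dbp and -0.60 for Tef, and within slide B, to -1.78 and -0.27 (2 BD 3 arrays and 1 CD 3 array). The intervals of Dbp reach beyond 1 on the log2 scale in both directions, so differences of that size were not detectable.

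Whether the diets differed in phase was asked through the arms, which peak at different times: the mean of the 7 negative and output members minus that of the 3 positive members was taken in each rat. It was 0.59, -0.14, -1.63, 1.59 and -0.24 in CD 3 and -0.71, -1.58, -0.08, -0.06 and 0.23 in BD 3. In CD 14 it ran from -1.35 through 0.15 to 0.62, and in BD 14 from -1.75 through 0.77 to 1.39. The mean was highest for BD 14 at 0.24 ± 1.19 (SD, n = 6) and lowest for BD 3 at -0.44 ± 0.72 (SD, n = 5), with 0.03 ± 1.19 for CD 3 and -0.05 ± 0.72 for CD 14. Each pair of groups overlapped, and the differences between these means were not tested. The lowest arrays of the 4 groups, CD 3 replicate 3, BD 3 replicate 2, CD 14 replicate 6 and BD 14 replicate 2, lay between -1.75 and -1.35 and sat on 4 different slides. They are also the 4 arrays with the highest Dbp signal in the reference channel, and their values by channel are given below. Only slides B and C held both diets at 1 time. On slide B the 2 BD 3 rats were at -1.58 and -0.71 and the 1 CD 3 rat at 0.59, and on slide C the mean of 6 BD 14 rats was 0.24 and that of 2 CD 14 rats -0.15. Leaving out 1 rat at a time moved the CD 3 mean between -0.36 without replicate 4 and 0.45 without replicate 3. It moved the BD 14 mean between 0.01 without replicate 4 and 0.64 without replicate 2, the BD 3 mean between -0.61 without replicate 5 and -0.15 without replicate 2, and the CD 14 mean between -0.18 without replicate 1 and 0.22 without replicate 6.

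Within the ratios, which hold both the rat and the reference, Arntl and Dbp ran against each other from array to array. They correlated at r = -0.89 over the 22 arrays (Spearman's rho -0.89, permutation p = 1e-05 for each, the smallest that 100000 permutations can give, adjusted p = 9e-05 over the 9 relations of Arntl). In the rat channel alone r was -0.43 and did not pass (adjusted permutation p = 0.14), and in the reference channel alone it was -0.77, as described below. Of 18736 probes with values on all arrays, the main Arntl probe had the lowest correlation with Dbp, and the 3 Dbp probes were the 3 lowest with Arntl. The second Arntl probe, printed above, correlated with Dbp at -0.60, the 136th lowest. It followed the main Arntl probe at r = 0.68 in the ratio and 0.73 in Cy3, and at -0.18 in Cy5. Without the 2 rats farthest from the median of Arntl r was -0.84, and over the 19 rats without the 3 that stand apart in Dbp it was -0.80 (permutation p = 9e-05). It was -0.92 over the 10 rats of 3 months and -0.91 over the 12 of 14 months. Taken as deviations from slide means it was -0.89. It was -0.95 within slide C (8 arrays, exact permutation p = 0.00079) and -0.94 within slide A (6 arrays, exact permutation p = 0.0042).

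Arntl also correlated with Npas2 (r = 0.62, adjusted permutation p = 0.010), Tef (r = -0.58, adjusted permutation p = 0.013) and Per1 (r = 0.50, adjusted permutation p = 0.041), so that 4 of 9 relations passed. Among the same 18736 probes Npas2 was the 135th highest with Arntl, Tef the 211th lowest and Per1 the 779th highest. The second Npas2 probe, well above background on all 22 arrays in both channels, correlated with Arntl at 0.05, the 8681st lowest. The relation with Per1 did not pass as deviations from slide means (r = 0.44, adjusted permutation p = 0.069), after centring each array on its median (0.43 and 0.064), with normexp and loess (0.22 and 0.39) or without the 2 rats farthest from the median of Arntl (r = 0.34) and lost its pass when any of 8 single rats was left out. Without CD 3 replicate 3 neither Tef nor Per1 passed, and 2 relations passed. Over the 19 rats without the 3 farthest, Dbp alone passed (Npas2 r = 0.52, Tef r = -0.42), and over the 10 rats of 3 months again Dbp alone. With Nr1d1, whose protein represses Arntl, r was -0.02 over all rats, 0.62 over the 10 of 3 months and -0.53 over the 12 of 14 months (adjusted permutation p = 0.93, 0.16 and 0.14), and with Nr1d2 it was -0.42 (adjusted permutation p = 0.075). The relation with Nr1d2 passed with normexp and loess and after centring (r = -0.52 each, adjusted permutation p = 0.027 and 0.030), and r was -0.22 as deviations from slide means (adjusted permutation p = 0.35). With Per2 r was -0.42 (adjusted permutation p = 0.076), and -0.47 with normexp and loess, where it passed (adjusted permutation p = 0.0498). In Cy5 alone r with Per2 was 0.49 (adjusted permutation p = 0.14). Over all 45 pairs of members 10 passed after adjustment. The positive ones were Dbp with Tef (0.78), Clock with Npas2 (0.74), Per2 with Dbp (0.62), Arntl with Npas2, Nr1d1 with Nr1d2 (0.61) and Per2 with Tef (0.59). The negative ones were Arntl with Dbp and with Tef, and Per1 with Tef (-0.79) and with Dbp (-0.63).

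Each ratio is shared between the rat and the reference, so the channels were then read apart. The reference was meant to be the same RNA on all arrays, yet its Dbp signal was among the most variable on the array. Log2 Cy3 of Dbp ran from 9.04 on CD 3 replicate 1 to 12.63 on CD 14 replicate 6. In processed signal units before scaling this was a range of 452 to 7870. The SD of 1.07 exceeded that of 97.9% of probes, whose median SD in Cy3 was 0.39. The other Dbp probes had Cy3 SDs of 1.13 and 1.21 and followed the main one at r = 0.98 and 0.99, so the pattern was not that of a single spot. The highest 4 arrays were CD 14 replicate 6, BD 3 replicate 2 (12.17), CD 3 replicate 3 (12.10) and BD 14 replicate 2 (11.86), 1 in each group, and the next array was at 11.04. Of these 4 arrays, 3 are the arrays with the lowest Dbp ratios.

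In the rat channel log2 Dbp ran from 8.72 to 11.94, with an SD of 0.89, higher than that of 84.6% of probes. On the 3 arrays with the lowest ratios it was 9.38, 9.75 and 8.72, and on CD 3 replicate 1 and CD 14 replicate 5, whose ratios were 0.31 and -0.30, it was 9.28 and 9.0. Dbp in Cy5 and Dbp in Cy3 did not move together over the arrays (r = -0.06, rho = -0.03, permutation p = 0.77 and 0.91).

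Per2 was variable in both channels, with SDs of 1.25 in Cy5 and 1.41 in Cy3, the latter above 99.5% of probes. The Cy5 and Cy3 signals of a member correlated for Nr1d1 (r = 0.71, adjusted permutation p = 0.0031 over the 10 members), Per1 (0.55), Per2 (0.53) and Clock (0.50), and for the other 6 members r lay between -0.19 and 0.31.

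**Figure D3:**
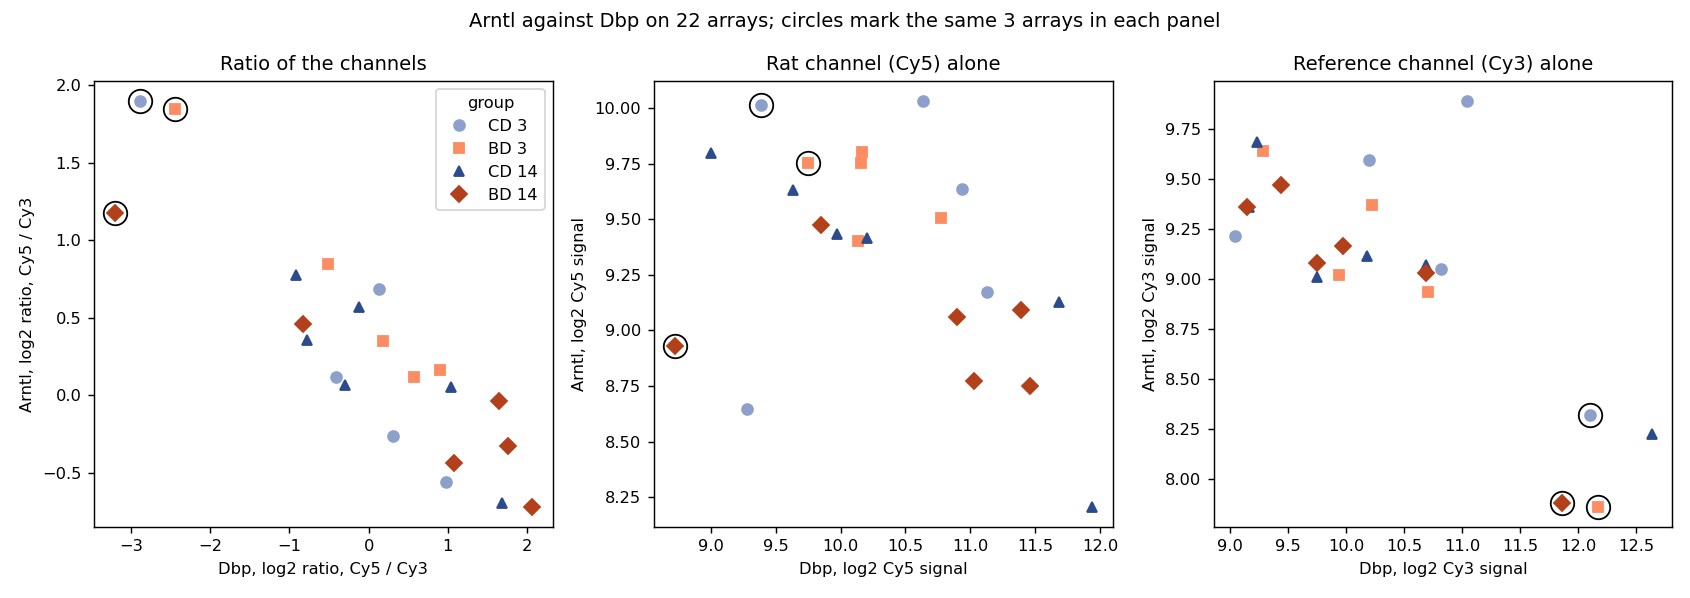
Arntl (y axis) against Dbp (x axis) on 22 arrays as log2 ratio (left), log2 signal of the rat channel Cy5 (middle) and log2 signal of the reference channel Cy3 (right). Circles mark the same 3 arrays in each panel, and the correlations are -0.89, -0.43 and -0.77.

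Arntl and Dbp had negative correlations in each channel, of which that in the reference channel passed adjustment. In Cy3 alone r was -0.77 (rho -0.60, permutation p = 1e-04, adjusted p = 0.00045), and without the 2 arrays farthest from the median of Arntl in Cy3 it was -0.68. In Cy5 alone r was -0.43 (rho -0.39, permutation p = 0.045 and 0.071, adjusted permutation p = 0.14), and without the 2 farthest it was -0.46. Of the 9 relations of Arntl, 3 passed in Cy3 (Dbp, Npas2 at 0.79 and Tef at -0.73) and none in Cy5. The second Npas2 probe followed the main one at -0.14 in Cy3, where it was the 8694th lowest of 18736 probes with Arntl. In Cy5 Nr1d2 passed without the 2 arrays farthest in Arntl (r = -0.61, adjusted permutation p = 0.048). Within slide C in Cy5 the relations with Nr1d2 (-0.94) and Clock (-0.87) passed, and within slide A those with Per2 (0.85), Npas2 (0.84) and Tef (-0.87), so that no relation passed in Cy5 on both slides. Of the 45 pairs, 13 passed in Cy3 and 2 in Cy5, Clock with Npas2 (0.74) and Clock with Nr1d2 (0.63). The difference between the channels was not itself tested, and the arrays on which both were measured are the same. Within slide C r was -0.91 in Cy3 (exact permutation p = 0.00099) and -0.58 in Cy5 (exact permutation p = 0.14). Within slide A it was -0.52 in Cy3 and -0.89 in Cy5 (exact permutation p = 0.28 and 0.061).

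**Figure D4:**
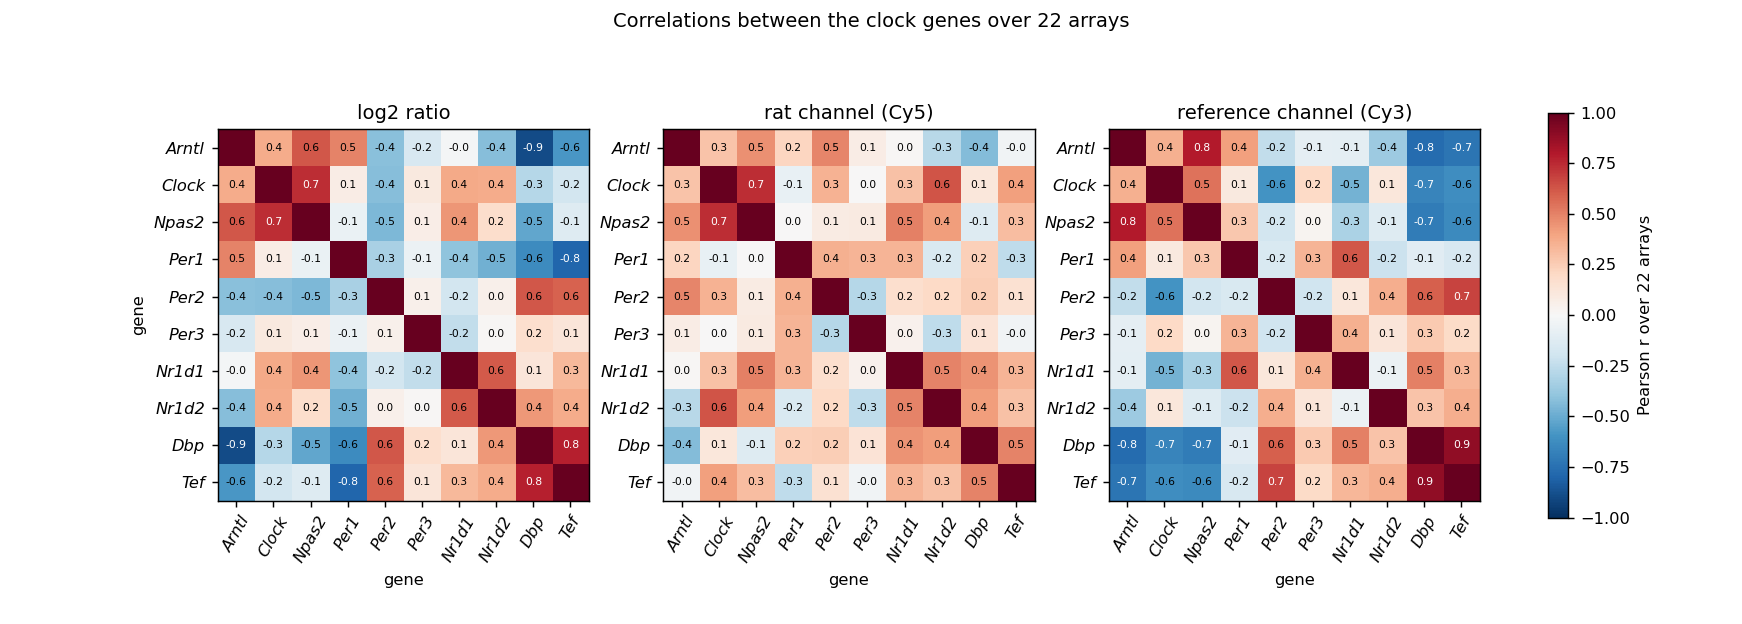
Pearson correlations between the clock genes over 22 arrays in the log2 ratio (left), the rat channel (middle) and the reference channel (right), with blue for negative and red for positive values. Arntl, Clock and Npas2 are all negatively correlated with Dbp and Tef in the reference channel, at -0.77 for Arntl with Dbp, while in the ratio the strongest negative value is that of Arntl with Dbp at -0.89 and in the rat channel the same pair is at -0.43.

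The difference of the arms was read by channel as well. Its SD over 22 arrays was 0.94 in the ratio, 0.55 in Cy5 and 0.80 in Cy3. In Cy5 alone its means were -1.12 ± 0.30 for BD 3, -0.78 ± 0.60 for CD 14, -0.64 ± 0.47 for BD 14 and -0.59 ± 0.76 for CD 3, where only differences between groups have a meaning, since signals of different probes set its level. BD 3 was lowest in Cy5 as in the ratio, and it overlapped with each other group. Cy3 means ran from -0.84 in BD 14 to -0.66 in CD 3, with SDs of 0.71 to 1.04. The arrays lowest in the ratio in each group were the highest in Cy3. They were at 0.17 (CD 3 replicate 3), 0.76 (BD 3 replicate 2), 1.18 (CD 14 replicate 6) and 0.39 (BD 14 replicate 2), and all others at -0.34 or below. In Cy5 they were at -1.36, -0.87, -0.25 and -1.32, where all arrays ran from -1.65 to 0.67. The part of the reference in the lowest ratios of the arms was not tested.

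The Cy3 signal of the members had 0 members past adjustment between groups, with a lowest adjusted p in the 4 pairwise comparisons of 0.34 (limma, Nr1d2 in BD 3 minus CD 3, where Cy3 was 0.53 higher, unadjusted p = 0.038). At an unadjusted p under 0.05 the reference channel differed at 13.3% of probes for BD 3 minus CD 3 and 12.8% for BD 14 minus CD 14, where the ratio gave 7.1% and 4.61%. For CD 14 minus CD 3 the order was the other way, with 7.11% of probes in Cy3 and 10.1% in the ratio. For BD 14 minus BD 3 it was 16.2% in Cy3 and 7.43% in the ratio, and Nr1d1 there was 0.36 lower in Cy3 in BD 14 (unadjusted p = 0.45 by limma). For the interaction 21.6% of probes differed in Cy3 and 4.8% in the ratio. In Cy5 alone Clock was 1.07 higher in BD 3 than in CD 3 (unadjusted p = 0.0054, adjusted p = 0.12 by limma), against 15.2% of probes under 0.05. At that threshold 3 of 10 members passed in Cy5 for BD 14 minus CD 14 (Per1 at -0.68 with unadjusted p = 0.023, Per3 at -0.83 and Nr1d2 at 1.07), against 5.61% of probes, where the ratio gave 0 of 10. For BD 14 minus BD 3 it was also 3 of 10 (Arntl at -0.63, Per3 at -0.90 and Nr1d2 at 1.25), against 12.5%, for CD 14 minus CD 3 it was 1 of 10 (Clock at 0.70), against 9.93%, and for the interaction 2 of 10 (Clock at -1.0 and Per3 at -1.06), against 9.28%. None of these members passed adjustment. In Cy3 Clock differed by 0.54 in BD 3 minus CD 3. In BD 14 minus CD 14 Cy3 differed by -0.41 for Per1, -0.39 for Per3 and 0.34 for Nr1d2. In BD 14 minus BD 3 it differed by 0.03 for Arntl, -0.41 for Per3 and -0.27 for Nr1d2. Clock was at 0.29 in CD 14 minus CD 3, and Clock and Per3 at -0.55 and -0.73 in the interaction. All but Arntl and Nr1d2 in BD 14 minus BD 3 had the same sign in both channels. What set the Dbp and Arntl levels of the reference channel was not tested.

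Other genes of the clock and its outputs were read from lists. Of 18 further clock loop genes 14 were tested and 0 passed after adjustment in any comparison. Cry1, the partner repressor of the PER proteins, was 1.31 lower in BD 14 than in BD 3 (SE 0.55, unadjusted p = 0.028, adjusted p = 0.61 by limma). Nono differed by -0.34 and Csnk1e, a kinase of PER proteins, by 0.53 between BD 14 and CD 14 (adjusted p = 0.95 each by limma). In BD 14 minus CD 14 the 14 genes had 1 higher and 1 lower at an unadjusted p under 0.05, against 4.61% of all probes, and a median of -0.03, against a median of 0.05 over all probes.

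Of 16 clock output genes of liver 15 were tested, again with 0 past adjustment. Lpin1, a phosphatidate phosphatase, was 1.20 higher in BD 14 than in CD 14 (SE 0.39, unadjusted p = 0.0053, adjusted p = 0.85 by limma), Por, the reductase of cytochromes P450, was 0.87 higher there, and Alas1, which starts haem synthesis, was 0.93 lower in BD 14 than in BD 3. For diet at 14 months the list had 2 higher and 0 lower at an unadjusted p under 0.05, where 4.61% of all probes passed (3.8% higher), and a median of 0.14. Over the 22 rats the ratios of both lists were set against that of Dbp, with those of the lists below, in 49 relations. Nnmt (r = -0.78), Nfil3, the repressor at D-boxes (-0.67), Cry1 (-0.66), Noct (-0.59) and Rora, the activator at RORE elements (-0.59), passed with a negative sign, and Ppara (0.65), Upp2 (0.62) and Timeless (0.56) with a positive one (adjusted permutation p between 0.0015 and 0.039). By rank correlation Nnmt and Cry1 passed. In Cy5 alone these 8 had r between -0.38 and 0.36 with Dbp, and in Cy3 between -0.77 and 0.94.

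Feeding, fasting and glucocorticoids also act on clock genes, as does body temperature. Of 12 genes tested for the former, 0 passed after adjustment. Sgk1, a kinase induced by glucocorticoids, was 1.49 higher in CD 14 than in CD 3 (unadjusted p = 0.042, adjusted p = 0.48 by limma), and Angptl4 was 0.82 higher in BD 14 than in CD 14. Of 8 temperature genes, the cold-induced Cirbp was 1.49 higher in BD 3 than in CD 3 (SE 0.49, unadjusted p = 0.0058, adjusted p = 0.47 by limma), Hsph1 was 0.83 higher there, and Rbm3 was 0.59 higher in BD 14 than in BD 3. For diet at 14 months the median of the 8 was 0.45, beside 0.05 over all probes, and none had an unadjusted p under 0.05. None of these 20 genes correlated with Dbp after adjustment.

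Leaving out the members, 12614 named genes, those of the lists included, were ranked by their correlation with Dbp over the 22 arrays, which share the reference, and the values are descriptions. Highest were Hsd17b2 (0.81), Psme1 (0.78), Psme2 (0.75), Palb2 (0.75) and Lig1 (0.74), and lowest were Tubb2a (-0.79), Nnmt (-0.78), Dnajc16 (-0.75), Aass (-0.75) and Cep44 (-0.74). With Arntl, highest were Rnf8 (0.80), Gls2 (0.77), LOC687851 (0.76), Aass (0.76) and Nnmt (0.76), and lowest were B2m (-0.81), RGD1309362 (-0.81), Ripk3 (-0.80), Psme2 (-0.79) and Mcm3 (-0.78). For the 5 highest with Dbp, r in Cy3 alone lay between 0.45 (Palb2) and 0.89 (Hsd17b2), and in Cy5 alone between 0.11 (Lig1) and 0.56 (Hsd17b2). For the 5 lowest it lay between -0.83 (Tubb2a) and 0.05 (Dnajc16) in Cy3, and between -0.58 (Tubb2a) and -0.07 (Dnajc16) in Cy5. Cell type marker lists did not track Dbp after adjustment over 7 lists, the closest being 3 bile duct markers (r = 0.49, adjusted permutation p = 0.14). Nor did the share of spots above background, the share of spots left out or the median Cy5 signal of an array (r between -0.04 and 0.21 with Dbp and with the difference of the arms).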

How the data were processed

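Per the labels, liver RNA of 22 rats was hybridised to 22 Agilent rat arrays, 1 per rat. The authors deposited the scanner output, with Cy5 and Cy3 processed signal intensity for each of 62976 spots, after background subtraction and linear Lowess dye normalization. The deposited log ratio is a log10 value, which was turned to log2 here.

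Control spots and outlier spots were left out, spots of a probe were averaged, and a probe was tested if some group had it detected on all of its arrays, where detected means a Cy5 signal well above background for a share of 0.5 or more of the spots. This left 19434 of 30367 probes. Groups were compared in a single fit over the 4 groups (limma 3.58.1, R 4.3.3) with Benjamini-Hochberg adjustment over all probes at 0.05, which was tested on simulated data. Single-channel values were quantile normalized. Correlations used 100000 permutations, or all of them for up to 8 arrays. The number of rats limits the precision of each group mean. From each list, the 3 genes with the lowest p in any pairwise comparison were named, except 1 that is not reported here, and the 5 genes most and least correlated with Dbp and with Arntl. The members and lists were chosen with earlier results of these data known. Alternatives were array weights, slide as a block, other background correction, centring, filters, other probes and leaving out each rat.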

Additional observations from a re-analysis of the deposited data

Results flagged for a closer look

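In 44 groups of member values (10 genes and the difference of the arms, 4 groups each), Dixon's criterion was met 2 times, and chance gives about 1 in 20. Per1 on BD 14 replicate 2 had a log2 ratio of 1.28, far above the next rat of its group at 0.18. The same rat had the lowest Dbp ratio of the study, and the reference signal of Per1 was well above background on 9 of 22 arrays. Per2 on CD 3 replicate 4 had a log2 ratio of 3.34, far above the next rat of its group at 1.32. The same rat was the lowest in Npas2, Clock and Nr1d1, and its array had the lowest share of spots well above background (52.4%) and the lowest median Cy5 signal (44.2) of all 22. Their part in these values was not tested.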

How the results depend on the processing

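No member passed adjustment in any comparison under any alternative fit (limma, lowest adjusted p = 0.068, Nr1d1 in BD 14 minus BD 3 with array weights), and BD 14 minus BD 3 stayed above 0 for Nr1d1 in all of them and for Nr1d2 in all but the strict filter, which left Nr1d2 out. With normexp and loess this difference was 0.49 for Nr1d2 and 0.64 for Nr1d1. The methods' F test over the 4 groups called 0 members and 1 probe, with Nr1d1 and Nr1d2 under an unadjusted p of 0.05, as 10.7% of probes were. Over all probes, Cy5 alone called 221 for BD 3 minus CD 3, array weights 100 and the fit of only the groups compared 22 for BD 14 minus BD 3, where the ratio called 0. Without CD 3 replicate 5, 93 probes were called for BD 3 minus CD 3 and 204 for CD 14 minus CD 3. The cause of these changes was not tested. Rat numbers did not pair the samples (31 pairs of the same number, median r = -0.02, 6 over 0.1), and the fit with a replicate block called 0 members in each comparison.

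The following log2 differences of members changed sign. With slide as a fixed block, CD 14 minus CD 3 was 1.0 for Arntl, 0.25 for Per1, -0.31 for Per2, -0.090 for Nr1d2, -0.97 for Dbp and -0.67 for Tef. In the same fit BD 3 minus CD 3 was 0.18 for Per1, -0.072 for Per2, -0.66 for Nr1d2, -1.44 for Dbp and -0.60 for Tef. BD 14 minus BD 3 was 0.071 for Clock, 0.31 for Npas2, 0.0023 for Per2, 0.78 for Per3 and 0.23 for Tef there, and BD 14 minus CD 14 was 0.36 for Npas2 and 0.52 for Per3. With slide as a random block, Arntl was 0.026 for CD 14 minus CD 3, Nr1d2 -0.17 and Dbp -0.25 for BD 3 minus CD 3, and Tef 0.063 for BD 14 minus BD 3. With array weights, Arntl was -0.022 and Nr1d2 -0.21 for BD 3 minus CD 3, Clock -0.020 for BD 14 minus CD 14, Per3 0.047 for CD 14 minus CD 3 and Tef 0.16 for BD 14 minus BD 3. With normexp and loess, Clock was -0.000895 for BD 14 minus CD 14, Per2 -0.21 for CD 14 minus CD 3 and Nr1d2 -0.12 for BD 3 minus CD 3. After centring each array on its median, Clock was -0.029 and Per2 -0.047 for BD 14 minus CD 14 and Nr1d2 -0.0032 for BD 3 minus CD 3. In Cy5 alone, CD 14 minus CD 3 was 0.19 for Per1, -0.69 for Per2 and 0.16 for Per3, BD 3 minus CD 3 was -0.26 for Per2, 0.23 for Per3 and -0.076 for Dbp, and Per2 was 0.045 for BD 14 minus BD 3. By other probes, Clock was -0.55 for BD 3 minus CD 3, -0.68 for CD 14 minus CD 3 and 0.59 for BD 14 minus BD 3, Npas2 was 0.051 for BD 14 minus BD 3 and Arntl 0.037 for BD 14 minus CD 14. A second Per3 probe gave 0.43 for BD 3 minus CD 3, 0.74 for BD 14 minus CD 14, 0.19 for CD 14 minus CD 3 and 0.51 for BD 14 minus BD 3. Within single slides, with no test, slide B (2 BD 3 arrays and 1 CD 3 array) gave BD 3 minus CD 3 of 0.14 for Per1, -0.34 for Nr1d2, -1.78 for Dbp and -0.27 for Tef. Slide E (1 array each) gave CD 14 minus CD 3 of 0.66 for Arntl, 0.31 for Per1, -1.22 for Per2, -0.027 for Nr1d1, -0.53 for Nr1d2, -0.51 for Dbp and -1.12 for Tef. Slide C gave BD 14 minus CD 14 of 0.36 for Npas2 and 0.52 for Per3.

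Leaving out 1 rat at a time turned a sign in 18 differences. For BD 3 minus CD 3 the range was -0.0069 to 0.67 for Arntl, -0.39 to 0.16 for Per3, -0.095 to 0.50 for Nr1d1, -0.20 to 0.30 for Nr1d2 and -0.51 to 0.66 for Dbp. For CD 14 minus CD 3 it was -0.42 to 0.19 for Arntl, -0.27 to 0.74 for Per2, -0.47 to 0.13 for Per3 and -0.15 to 0.81 for Dbp. For BD 14 minus CD 14 it was -0.075 to 0.16 for Clock, -0.31 to 0.00305 for Per1, -0.45 to 0.55 for Per2, -0.011 to 1.04 for Dbp and -0.12 to 0.49 for Tef. For BD 14 minus BD 3 it was -0.31 to 0.035 for Clock, -0.24 to 0.073 for Per1, -0.72 to 0.25 for Per2 and -0.28 to 0.27 for Tef.

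The number of relations of Arntl past adjustment was 4, and 0 in Cy5 alone, 1 over the 10 rats of 3 months, 1 without the 3 arrays farthest from the median of Arntl (an alternative chosen after seeing the data) and 2 to 5 without 1 rat. Readings of the Cy3 channel alone, of all 45 pairs and of the arms over the members bright on all arrays were also chosen after seeing the data. Values of the last of these readings are not given here.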
